A study of Mus musculus with 40 samples.

Results

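A total of 16136 copies of the L2 and MIR families lay in gene deserts, among the transposable element (TE) copies counted individually in this total RNA-seq study. They were chosen by position alone, as copies on chromosomes 1 to 19 whose family belongs to the L2 or MIR subclass and which lie at least 50 kb from the span of every gene in the gene table. They are 16136 of 184111 autosomal L2 and MIR copies and of 3799629 TE copies in all, and 107259 L2 and MIR copies inside gene spans served for comparison. The members, 6609 L2 and 9527 MIR copies of 18 families, have a median length of 119 bases, sum to 2.23 Mb and sit in 2292 of 2990 desert intervals.

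The study asks how genes and transposons respond when the lamins and the lamin B receptor, which hold heterochromatin at the nuclear edge, are lost. Libraries came from naive mouse embryonic stem (mES) cells in 2i and LIF and from epiblast-like cells (EpiLCs) made from them with FGF and activin. At each stage there were 8 wild-type (WT) libraries, 4 without Lbr (LBRKO), 4 without the lamin genes Lmna, Lmnb1 and Lmnb2 (TKO) and 4 without all 4 genes (QKO). By the study's methods each replicate came from its own culture well, so p-values measure the spread between wells. Those methods give fewer replicates than the WT libraries here, and the labels do not say how WT replicates 1 to 4 and 5 to 8 relate or which of several Lbr knockout clones gave each LBRKO library. The QKO cells are 1 clone derived from the TKO cells, with an in-frame deletion on an Lbr allele by the study's genotyping. The study's karyotypes list trisomy 8 in TKO cells and gains of chromosomes 6 and 8 in part of the WT cells, so genotype and clone cannot be told apart.

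L2 is a family of LINE retrotransposons, and MIR is a SINE family thought to have been copied by the L2 enzymes. Both stopped spreading long before rodents arose, so their copies in the mouse are short, broken and diverged, and a read usually has a single place to map. They seldom carry a working promoter, and reads on them commonly come from transcripts that run through the place where they lie.

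The 5 member copies with the most reads are shown first, followed by the longest copy of up to 300 bases without a read in the fullest desert interval, as a contrast. Capitals mark CpG dinucleotides, the usual site of DNA methylation. The sequences were read from the GRCm39 genome, each on the strand of the copy.
MIRc_dup17852: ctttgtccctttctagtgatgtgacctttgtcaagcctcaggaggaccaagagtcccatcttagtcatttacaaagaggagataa
L2a_dup19214: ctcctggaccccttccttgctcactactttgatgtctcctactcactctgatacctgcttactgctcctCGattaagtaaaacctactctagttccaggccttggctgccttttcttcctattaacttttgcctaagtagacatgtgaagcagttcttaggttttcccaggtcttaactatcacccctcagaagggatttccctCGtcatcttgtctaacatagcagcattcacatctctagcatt
MIR3_dup13518: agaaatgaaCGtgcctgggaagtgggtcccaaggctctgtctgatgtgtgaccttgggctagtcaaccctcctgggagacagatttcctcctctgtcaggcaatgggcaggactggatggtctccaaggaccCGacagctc
L2_dup15494: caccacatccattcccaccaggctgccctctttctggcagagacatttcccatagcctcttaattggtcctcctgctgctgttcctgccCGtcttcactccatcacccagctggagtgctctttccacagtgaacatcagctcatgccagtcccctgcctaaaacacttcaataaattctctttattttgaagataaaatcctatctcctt
MIR_dup32875: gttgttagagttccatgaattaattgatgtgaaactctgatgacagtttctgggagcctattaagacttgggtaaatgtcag
MIR_dup32896: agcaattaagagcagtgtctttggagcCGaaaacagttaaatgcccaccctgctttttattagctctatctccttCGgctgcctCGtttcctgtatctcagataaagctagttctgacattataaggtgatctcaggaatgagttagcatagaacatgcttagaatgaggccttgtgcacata

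MIRc_dup17852 lies at chr16:7766334-7766418 on the minus strand, 68.6 kb from the nearest gene span, in an exon of Gm61008. Gm61008 is a lncRNA gene of the newer GENCODE M39 annotation that the gene table does not hold. L2a_dup19214 lies at chr15:8850020-8850265 on the minus strand, 93.7 kb from the nearest gene span and inside the M39 lncRNA gene Gm31340 but outside its exons. MIR3_dup13518, at chr16:30511551-30511691 on the plus strand, is 89.9 kb from Fam43a and 260 bases from the M39 lncRNA gene Gm61161. L2_dup15494, at chr16:9040552-9040762 on the plus strand, is 2001 bases from the M39 lncRNA gene Gm49448. MIR_dup32875, at chr16:7753954-7754035 on the minus strand, shares its desert with MIRc_dup17852. The unread copy, MIR_dup32896, lies at chr16:9239358-9239540 on the minus strand and carries 3 CpG sites, and the 5 fullest copies carry 0 to 2. By class the order was the other way, with 6.58 CpG per kb in the fullest 1% of copies and 5.29 in the 13852 unread ones. Over all members CpG was scarce, at 5.46 per kb against 7.97 in L2 and MIR copies inside gene spans.

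Desert L2 and MIR copies were read at a low level in every group, and the level was highest in QKO cells at both stages. Reads were scaled to 1000000 gene counts of their library and are called RPM. The desert rate, in RPM per Mb of member sequence, was 4.39 ± 1.51 (SD, n = 8) in WT mES cells and 3.33 ± 0.719 (SD, n = 8) in WT EpiLCs. L2 and MIR copies inside gene spans had 481 ± 48.7 and 493.4 ± 41.4 (SD, n = 8 each) on the same scale.

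The 8 WT mES libraries ran from 3.06 to 7.72 with a median of 3.90, and replicate 7 was the highest. The QKO mES libraries had rates of 12.1, 15.4, 16.7 and 13.8, all above every WT library. The TKO mES libraries had 6.47, 7.46, 7.14 and 7.21, above every WT library but replicate 7. The LBRKO mES libraries, at 5.69, 4.52, 5.94 and 5.41, lay within the WT range. The QKO mES mean of 14.5 was 3.31 times the WT mean (two-sided exact permutation test, p = 0.00202, the smallest that 4 against 8 libraries allow; adjusted over 9 comparisons, 0.00909). The TKO mES mean of 7.07 was 1.61 times the WT mean (exact permutation p = 0.0121, adjusted 0.0364). That call rests on the full set: leaving out any 1 of 11 libraries, all but WT replicate 7, brought the adjusted p to 0.0514. The LBRKO mES mean of 5.39 did not pass (exact permutation p = 0.246, adjusted 0.317), though without WT replicate 7 the adjusted p was 0.0341. QKO exceeded TKO by 7.47 in mES cells without overlap (exact permutation p = 0.0286, adjusted 0.0514), where 4 against 4 libraries cannot go below 0.0286. In bulk libraries, more transcribing cells and more RNA per cell cannot be told apart.

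In EpiLCs the QKO libraries had 7.60, 9.42, 9.11 and 9.43. All lay above the 8 WT libraries, which ran from 2.74 to 4.85 with a median of 3.11. The QKO mean of 8.89 was 2.67 times the WT mean (exact permutation p = 0.00202, adjusted 0.00909). TKO EpiLCs had 2.496, 2.80, 2.94 and 3.38 and did not pass (exact permutation p = 0.319, adjusted 0.359). LBRKO EpiLCs had 2.76, 2.86, 6.18 and 3.598 (exact permutation p = 0.489, adjusted 0.489), and the sign of their difference rested on replicate 3: without it LBRKO minus WT was -0.25. QKO exceeded TKO by 5.99 without overlap (exact permutation p = 0.0286, adjusted 0.0514). WT EpiLCs minus WT mES cells gave -1.07 (exact permutation p = 0.0726, adjusted 0.109), and without WT_EpiLC replicate 7 -1.29 with an adjusted p of 0.0413.

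**Figure D1:**
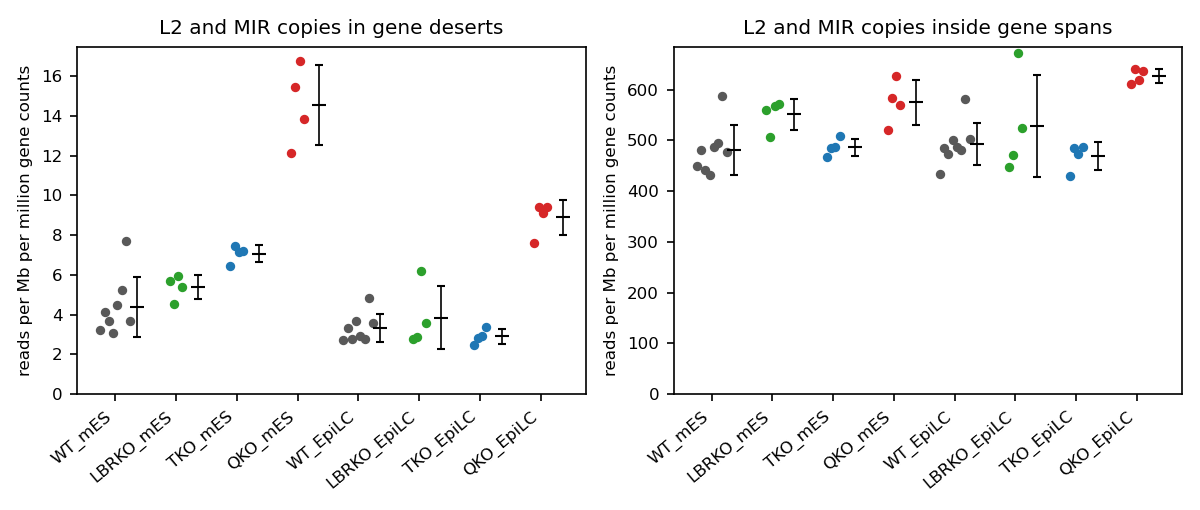
Reads on L2 and MIR copies in RPM per Mb of copy sequence, for each library (points) with the group mean and SD (black), in gene deserts (left) and inside gene spans (right). In the deserts the QKO libraries lie above all WT libraries of their stage, from 12.1 to 16.7 in mES cells and from 7.60 to 9.43 in EpiLCs.

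Over all members the TKO difference changed with the stage. With the member reads summed and fitted beside all genes, TKO was higher by 0.67 on the log2 scale in mES cells (SE 0.17, edgeR adjusted p = 0.00389), and the EpiLC value was -0.22 (SE 0.19, edgeR adjusted p = 0.487). The interaction, EpiLC minus mES, was -0.89 (SE 0.26, edgeR adjusted p = 0.0217), and without TKO_EpiLC replicate 1 it was -0.82 with an adjusted p of 0.0606. By subclass the TKO interaction passed for L2 (-1.125, SE 0.29, edgeR adjusted p = 0.00912) but not for MIR (-0.73, SE 0.27, edgeR adjusted p = 0.0827). For QKO the summed reads were higher by 1.67 (SE 0.17) in mES cells and by 1.26 (SE 0.17) in EpiLCs. The QKO interaction of -0.41 (SE 0.25) did not pass (edgeR adjusted p = 0.234), and without WT_mES replicate 7 it was -0.57 with an adjusted p of 0.0408. The LBRKO interaction was -0.11 (SE 0.25, edgeR adjusted p = 0.825).

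Both subclasses were higher in QKO cells. L2 members had a rate of 3.397 ± 1.28 in WT and 12.1 ± 1.22 in QKO mES cells, and MIR members 5.30 ± 1.75 and 16.8 ± 2.82 (SD, n = 8 and 4). In the fit beside all genes the QKO difference in mES cells was 1.77 (log2, SE 0.19, edgeR adjusted p = 3.04e-10) for L2 and 1.61 (log2, SE 0.17, edgeR adjusted p = 4.13e-10) for MIR. In EpiLCs the values were 1.21 (SE 0.20) and 1.29 (SE 0.18), and L2 was not tested against MIR.

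Depth moved with genotype and divided the WT libraries. WT replicates 1 to 4 held 25360443 to 33516247 gene counts, near the 22594640 to 33574993 of the TKO and QKO libraries, and WT replicates 5 to 8 held 39434595 to 48863506, near the 39734858 to 48139359 of LBRKO. The labels name no batch, and a part of depth in these differences was not tested. Against WT replicates 1 to 4 alone the QKO rate was 4.14 times WT in mES cells and 2.85 times in EpiLCs. Against replicates 5 to 8 the ratios were 2.76 and 2.52 (exact permutation of 4 against 4, adjusted 0.0643 each). TKO mES cells gave 2.01 and 1.34 times the rate of the 2 WT sets (adjusted 0.0429 and 0.214), and LBRKO mES cells 1.53 and 1.02 (adjusted 0.0429 and 0.914).

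The desert rate was also set against the L2 and MIR copies inside gene spans of the same library, where the scaling to gene counts cancels. The group means of those gene-span copies ran from 469 to 627. The log2 ratio of desert to gene-span rate was -6.83 in WT, -6.11 in TKO and -5.31 in QKO mES cells. The TKO difference of 0.72 and the QKO difference of 1.52 both passed without overlap (exact permutation p = 0.00202, adjusted 0.00606 each). In EpiLCs the ratio was higher in QKO by 1.09 (exact permutation p = 0.00202, adjusted 0.00606) and the TKO difference was -0.11 (exact permutation p = 0.305, adjusted 0.392). QKO lay above TKO by 0.79 in mES cells and by 1.20 in EpiLCs (exact permutation p = 0.0286, adjusted 0.0429 each). WT EpiLCs minus WT mES cells gave -0.40 (exact permutation p = 0.00451, adjusted 0.0101). That call was lost with WT replicates 1 to 4 alone (-0.24, adjusted 0.11) or 5 to 8 alone (-0.57, adjusted 0.0857), and for members 100 kb or more from genes the difference was 0.0498 (adjusted 0.919). Against WT replicates 5 to 8 alone the mES differences were 0.54 for TKO and 1.34 for QKO and the QKO EpiLC difference 1.07 (exact permutation of 4 against 4, adjusted 0.0514 each). LBRKO passed at neither stage (exact permutation, adjusted 0.425 and 0.624).

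The member reads were concentrated on few copies. Of 16136 members, 13852 (85.8%) had no read in any of the 40 libraries and 865 had exactly 1. At the other end 300 had 10 or more and 31 had 100 or more of the 17482 member reads. Spread over the members by length, the same reads would reach 9743 copies, against 2284 that were hit. In pooled scaled reads, the sum of RPM over libraries, the fullest 10 copies held 18.3%, the fullest 162 (1% of members) 62.5% and the fullest 5% 87.8%. The variance of the summed reads over members was 102.1 times their mean. With 126 to 916 member reads in a library, a copy without reads may be transcribed below what this depth detects.

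**Figure D2:**
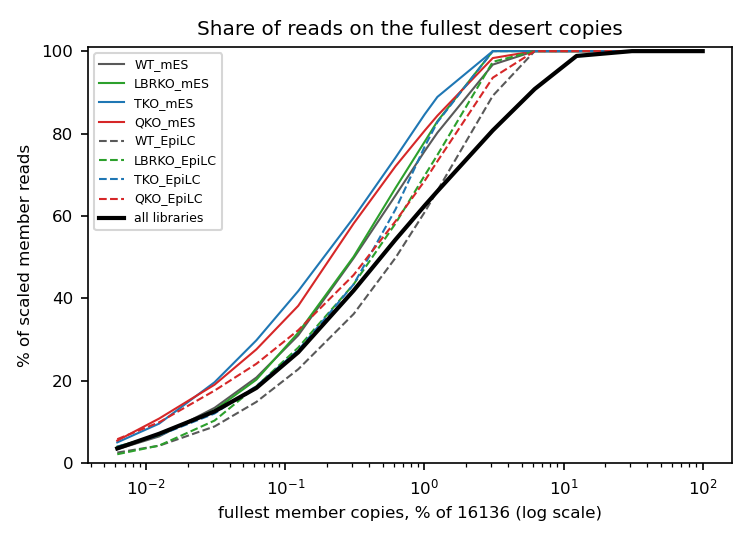
Share of scaled member reads (y axis, percent) held by the fullest member copies (x axis, percent of 16136 copies, log scale), ranked within each group and over all libraries. Over all libraries the fullest 10 copies hold 18.3% and the fullest 162 hold 62.5%.

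At equal depth no comparison of the number of copies hit passed after adjustment, though QKO and TKO EpiLCs did not overlap. A draw of 126 reads from each library, the count of the smallest, was expected to hit 81.2 ± 4.83 copies in WT and 79.0 ± 3.83 in QKO mES cells (SD, n = 8 and 4). The group means ran from 75.9 in TKO mES cells to 90.2 in LBRKO EpiLCs. QKO EpiLCs had 87.9 ± 0.676 and TKO EpiLCs 80.7 ± 5.96 (SD, n = 4 each), with every QKO library above every TKO library (exact permutation p = 0.0286, the smallest that 4 against 4 allow; adjusted 0.23). No adjusted p of the 9 comparisons was lower, which does not show that the groups are equally even.

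The 162 fullest copies lay in 84 desert intervals, at most 14 in 1 interval, and 23 were on chromosome 16. They comprised 69 L2 and 93 MIR copies, a MIR share of 57.4% against 59.0% of all members. Each had 15 to 585 reads, in a median of 15 libraries. Of them 29 had reads in all 8 groups. Reads were found on 146 of the 162 in WT mES cells, 138 in QKO mES cells, 100 in WT EpiLCs, 69 in TKO EpiLCs and 109 in QKO EpiLCs. Depth and the number of libraries differ between these groups, and their part in the counts was not tested.

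Members with reads lay among other TE copies with reads. Within 5 kb of the 162 fullest copies, 91.9% of the TE copies of any kind had a read, with a pooled rate of 155 RPM per Mb. Around the other 2122 members with reads the share was 46.0% and the rate 23.5. Around the members without reads the share was 12.4% and the rate 2.45. MIRc_dup17852 had reads on 8 of 9 neighbours, whose rate was 870.2 against 4728 for the copy itself. Here reads and gene counts were each pooled over the 40 libraries. That copy was chosen for its reads, and its rate divides by a length of 85 bases. In reads it held 570 and its neighbours 8952. L2_dup15494 had reads on all 9 neighbours, at 949 against 909 for the copy. These values describe copies and carry no test.

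The fullest copies were more often inside M39 genes. Of all members 21.2% lay within an M39 gene span and 1.36% overlapped an M39 exon. Among the fullest 162 the shares were 42.6% and 6.79%, and among members without reads 19.7% and 1.16%. Median length was 131.5 bases in the fullest and 118 in the unread copies, and median GC content 41.8% and 39.4%. A copy of L1MdA, a young LINE-1 family, lay within 5 kb of 7.41% of the fullest and 6.60% of the unread copies.

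In each annotation class the QKO mean was above the WT mean in mES cells. Members in M39 exons had 28.7 ± 8.13 RPM per Mb in WT and 116 ± 6.22 in QKO mES cells (SD, n = 8 and 4). Members in M39 introns had 7.67 ± 3.38 and 20.0 ± 2.69. The 6751 members at least 50 kb from every M39 gene, the strictest deserts, had 1.79 ± 0.646 in WT, 3.505 ± 0.328 in TKO and 7.46 ± 2.15 in QKO mES cells. In these deserts the QKO ratio to WT was 4.16 in mES cells and 2.07 in EpiLCs (exact permutation, adjusted 0.00909 and 0.00909), and the TKO ratio in mES cells was 1.96 (adjusted 0.0121).

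From each band of distance from genes to the next the WT rate in mES cells was lower, though not steadily within a band, and the QKO mean was above it in each. L2 and MIR copies within 10 kb of genes, outside the deserts, had 57.4 in WT and 105 in QKO mES cells, and those 10 to 50 kb away 11.1 and 25.4. Members 50 to 100 kb from genes had 5.68 ± 1.76 and 18.7 ± 2.92, those at 100 to 200 kb 2.39 ± 1.17 and 7.63 ± 0.778, and those at 200 kb or more 1.599 ± 0.993 and 7.32 ± 1.87 (SD, n = 8 and 4). The bands were not tested against each other. At the threshold itself, 1673 members at 50 to 55 kb had 3.89 in WT and 12.8 in QKO mES cells, below the means of the whole 50 to 100 kb band, and 1915 copies at 45 to 50 kb, just outside, had 5.84 and 15.8.

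Leaving out the fullest copies lowered the QKO excess without removing it, and turned the stage difference. Without the fullest 0.1% the rate was 3.33 ± 1.14 in WT and 9.86 ± 1.75 in QKO mES cells, and without the fullest 1% 1.44 ± 0.452 and 3.76 ± 0.871 (SD, n = 8 and 4). In EpiLCs without the fullest 1% the rates were 1.99 ± 0.562 in WT and 4.10 ± 0.395 in QKO. TKO mES cells without the fullest 1% had 1.79 ± 0.223, 1.25 times WT. WT EpiLCs minus WT mES cells was 0.56 without the fullest 1% (exact permutation, adjusted 0.0845) and 0.48 without the fullest 5% (exact permutation, adjusted 0.0303), against -1.07 over all members. Leaving out 5% and, below, chromosome 16 were chosen after the data were seen, and the sets were trimmed by their own reads, so these values are descriptions.

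**Figure D3:**
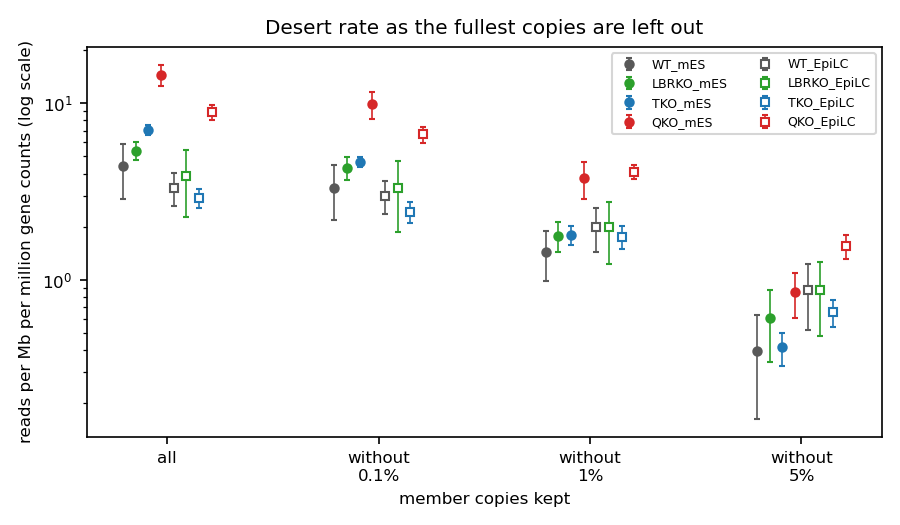
Group means of the desert rate (RPM per Mb, log scale; bars, SD) over all members and without the 0.1%, 1% and 5% of copies with the most pooled scaled reads. QKO lies above WT of its stage at each step, while WT EpiLCs pass from below WT mES cells (3.33 against 4.39) to above them (0.874 against 0.397).

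In mES cells of all 4 genotypes and in QKO EpiLCs chromosome 16 had the highest mean rate of the autosomes, but not in WT, LBRKO or TKO EpiLCs, where chromosome 14 did. The 658 members on chromosome 16 held 3107 of the 17482 reads. Of the 3107, 1165 lay in chr16:9030199-9335761, 840 in chr16:7747724-7871237 and 836 in chr16:30471616-30558762. On chromosome 14, 633 of 1537 reads lay in chr14:10751831-10899002 and 516 in chr14:10368317-10510614, both overlapping the M39 gene Ptprg. Most reads of both chromosomes thus came from few intervals, and the part of Ptprg was not tested. The rate on chromosome 16 was 24.2 ± 5.96 in WT, 23.6 ± 2.81 in LBRKO, 53.5 ± 7.80 in TKO and 111 ± 8.98 in QKO mES cells. In EpiLCs it was 3.93 ± 1.84 in WT, 5.44 ± 1.51 in LBRKO, 2.78 ± 1.45 in TKO and 34.1 ± 3.99 in QKO (SD, n = 8 for WT and 4 otherwise). Without chromosome 16 the QKO ratio to WT was 2.96 in mES cells and 2.39 in EpiLCs (exact permutation, adjusted 0.00909 each), and the TKO ratio in mES cells 1.45 (adjusted 0.0909). Chromosome 15 had 34.3 ± 2.77 in QKO against 5.72 ± 2.51 in WT mES cells. On chromosome 8, gained in TKO cells by the study's karyotypes, TKO had 8.98 ± 2.13 and WT 3.74 ± 2.56 in mES cells. Without chromosomes 6 and 8 the TKO rate was 6.95 ± 0.523 and the WT rate 4.39 ± 1.40.

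**Figure D4:**
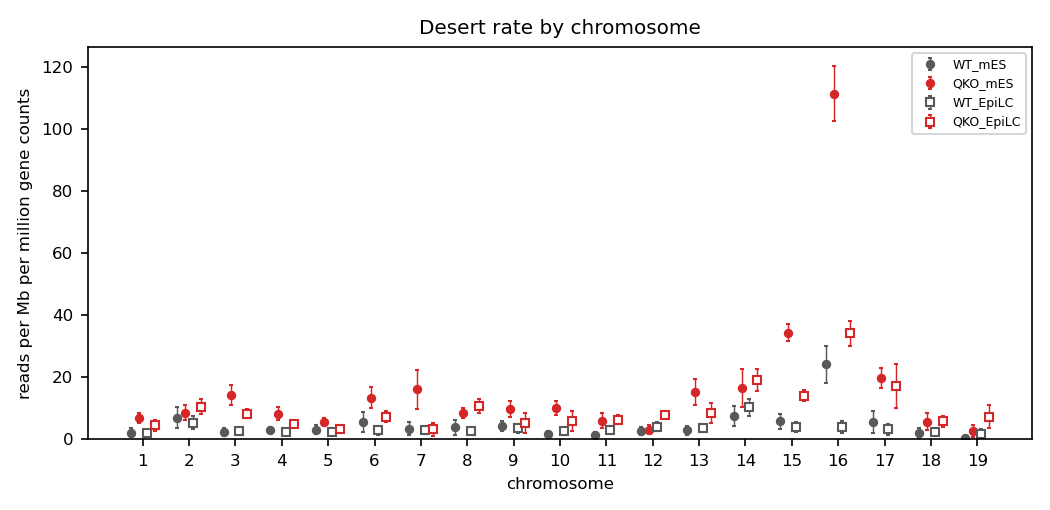
Desert rate on each autosome (RPM per Mb, mean and SD) in WT and QKO cells of both stages. Chromosome 16 reaches 111 in QKO mES cells against 24.2 in WT mES cells.

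The 5 fullest desert intervals held 25.7% of the pooled scaled reads, and 22 intervals held 50%. They were ranked by those reads, with QKO libraries among them, so their QKO levels are descriptions and are not independent of the choice. The fullest, chr16:9030199-9335761, holds 53 member copies and ends 50 kb short of Grin2a, a glutamate receptor subunit gene. Its member reads were 0.750 ± 0.142 RPM in WT, 0.744 ± 0.191 in LBRKO, 2.04 ± 0.486 in TKO and 4.36 ± 0.768 in QKO mES cells. The 4 QKO mES libraries had 3.84 or more and the 8 WT libraries 0.964 or less, so the groups did not overlap. WT EpiLCs had 0.0734 ± 0.0853 and QKO EpiLCs 0.412 ± 0.119 (SD, n = 8 for WT and 4 otherwise). The other 427 TE copies of that interval had 58.9 RPM per Mb in WT, 154 in TKO and 345 in QKO mES cells. Grin2a itself was higher in QKO mES cells (log2 1.68, SE 0.32, edgeR adjusted p = 3.49e-05) and in WT EpiLCs against WT mES cells (log2 1.87, SE 0.26, edgeR adjusted p = 4.82e-08), where the interval was lower (log2 -3.35, SE 0.35, edgeR adjusted p = 4.45e-11). The gene on the other side, which has no symbol here, was lower in WT EpiLCs than in WT mES cells (log2 -4.83, SE 0.46, edgeR adjusted p = 2.76e-12). That gene was higher in QKO mES cells (log2 2.34, SE 0.31, edgeR adjusted p = 5.85e-08) and in QKO EpiLCs (log2 3.99, SE 0.56, edgeR adjusted p = 9.56e-08). The part of either gene in the interval's reads was not tested.

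The second interval, chr16:7747724-7871237, holds 12 members and the M39 lncRNA gene Gm61008. It had 0.489 ± 0.206 RPM in WT, 0.117 ± 0.121 in LBRKO, 1.25 ± 0.531 in TKO and 2.43 ± 0.465 in QKO mES cells. Among EpiLCs the QKO mean was 1.84 ± 0.0579 against 0.0626 ± 0.0546 in WT. The third, chr15:8790249-8893967, begins 50 kb from Slc1a3, a glutamate transporter gene, and had 0.455 ± 0.235 in WT and 2.24 ± 0.335 in QKO mES cells. In QKO EpiLCs the interval was higher (log2 2.42, SE 0.39, edgeR adjusted p = 1.54e-06) while Slc1a3 was lower (log2 -1.16, SE 0.12, edgeR adjusted p = 3.75e-11); in QKO mES cells both were higher (Slc1a3, log2 1.56, SE 0.16, edgeR adjusted p = 5.97e-11).

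The fourth interval, chr16:30471616-30558762, begins 50 kb from Fam43a and had 0.681 ± 0.3498 RPM in WT and 2.39 ± 0.277 in QKO mES cells, but 0.0271 ± 0.0423 and 0.310 ± 0.143 in EpiLCs. The fifth, chr14:10751831-10899002, lies within the M39 span of Ptprg, a receptor phosphatase gene. It had 0.242 ± 0.216 in WT mES cells and 0.420 ± 0.181 in WT EpiLCs, the 1 interval of the 5 with the higher mean in EpiLCs (SD, n = 8 for WT and 4 otherwise).

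Member reads summed per interval and fitted beside the genes, an alternative chosen after the data were seen, left 23 intervals over the filter on low counts. An interval passes that filter through the groups where it is high, so the counts are descriptions, given beside the share of all genes and intervals tested that was called. In QKO mES cells 13 were called higher and 1 lower, against 10.6% and 6.68% of all tested. The lower one was chr2:160259920-160359531 (log2 -2.97, SE 0.63, edgeR adjusted p = 0.000167). In TKO mES cells 7 were higher and 0 lower, against 2.68% and 3.78%. QKO against TKO mES cells gave 4 higher and 0 lower, against 4.04% and 2.13%; the 4 were the fullest interval, the third, chr6:93536684-93576332 and chr15:43441160-43621856. In LBRKO mES cells 0 were higher and 1 lower, against 3.01% and 3.25%. The lower one in LBRKO was the second interval (log2 -2.05, SE 0.49, edgeR adjusted p = 0.00141).

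In QKO EpiLCs 10 intervals were higher and 0 lower, against 12.9% and 8.14% of all tested. QKO against TKO EpiLCs gave 9 higher and 0 lower, against 9.88% and 5.3%. LBRKO EpiLCs gave 3 higher and 0 lower, against 3.04% and 2.62%. These were chr17:81085952-81154209 (log2 3.82, SE 0.75, edgeR adjusted p = 0.00013), chr8:89639703-89682755 (log2 1.51, SE 0.47, edgeR adjusted p = 0.0147) and 1 interval of chromosome 18. In TKO EpiLCs edgeR called 0 higher and 0 lower, against 1.44% and 1.47%. In WT EpiLCs against WT mES cells 16 were lower and 1 higher, against 12.9% and 18.2%. The higher one was chr2:61160754-61273109 (log2 2.76, SE 0.58, edgeR adjusted p = 6.23e-05), which holds MIRb_dup3634.

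For single copies, 16 of the 16136 members passed the filter, among 131824 TE copies that did, again through the groups where they are high. A copy was called at an edgeR adjusted p under 0.05 and a change of over 2-fold. In QKO mES cells 11 were higher and 0 lower than in WT, against 24.2% and 1.37% of all copies tested. In TKO mES cells 3 were higher and 0 lower, against 3.45% and 0.685%; without TKO replicate 1 or 3 the count was 1. In LBRKO mES cells 0 were higher and 1 lower, against 0.408% and 0.453%. QKO against TKO mES cells gave 0 higher and 0 lower by edgeR, against 1.27% and 0.122%, with 3 over 2-fold at an unadjusted p under 0.05 (L2a_dup19214, MIRc_dup17852 and MIR3_dup4337) and 1, L2a_dup19214, called by DESeq2 (DESeq2 adjusted p = 0.0399).

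In QKO EpiLCs 9 of the 16 were higher and 0 lower than in WT, against 29.3% and 1.4% of all copies tested. In TKO EpiLCs edgeR called 0 higher and 0 lower, against 2.07% and 0.556%, with 1 higher over 2-fold at an unadjusted p under 0.05 (MIRb_dup20000) and 0 called by DESeq2. LBRKO EpiLCs gave 1 higher and 0 lower, against 1.2% and 0.282%. QKO against TKO EpiLCs gave 8 higher and 0 lower, against 12.6% and 0.551%; without 1 of the TKO libraries or QKO replicate 3 the count was 4 or 5. In WT EpiLCs against WT mES cells 11 were lower and 1 higher, against 10% and 11%.

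The fullest copies were ranked by reads of all libraries, QKO among them, so their QKO levels are not independent of the choice. The fullest, MIRc_dup17852, had 1.44, 1.45, 1.80 and 2.26 RPM in the QKO mES libraries. The WT mES libraries had 0.172 to 0.505 with a median of 0.365, so the groups did not overlap. It was higher in QKO mES cells (log2 2.29, SE 0.39, edgeR adjusted p = 2.99e-06) and in QKO EpiLCs (log2 4.14, SE 0.48, edgeR adjusted p = 2.78e-11). In LBRKO mES cells it had 0.146, 0, 0 and 0.126 and was lower (log2 -2.28, SE 0.56, edgeR adjusted p = 0.0157). That call was lost without LBRKO replicate 2 (edgeR adjusted p = 0.0859) or replicate 3 (edgeR adjusted p = 0.148).

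L2a_dup19214 had 1.96, 1.84, 1.31 and 2.08 RPM in QKO mES cells, above the 8 WT libraries at 0.0702 to 0.575. It was higher in QKO mES cells (log2 2.68, SE 0.39, edgeR adjusted p = 4.99e-08) and in QKO EpiLCs (log2 2.48, SE 0.43, edgeR adjusted p = 4.39e-06). MIR3_dup13518 had 1.27, 1.14, 1.02 and 1.06 in QKO mES cells against 0.0657 to 0.710 in WT and was higher (log2 1.80, SE 0.41, edgeR adjusted p = 0.000597). In the 8 WT EpiLC libraries it had 1 read against 94 in the 8 WT mES libraries, a ratio of mES to EpiLC levels of 97.0 (95% counting interval 17.0 to 3870, which covers counting error only). Against TKO EpiLCs, with 0 reads, it was at least 3.20-fold higher in QKO EpiLCs, a call lost without any 1 of the TKO libraries or QKO replicate 3 (edgeR adjusted p 0.0514 to 0.113); such bounds count 3 reads over the group at 0.

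L2_dup15494 was higher in both lamin mutants of mES cells. It had 0.781, 0.986, 0.447 and 0.663 RPM in TKO and 0.522, 1.06, 1.18 and 0.811 in QKO, against 0.0628 to 0.241 in WT and 0.0463 to 0.151 in LBRKO. The TKO and QKO libraries did not overlap with WT (TKO, log2 1.91, SE 0.44, edgeR adjusted p = 0.00206; QKO, log2 2.18, SE 0.44, edgeR adjusted p = 8.39e-05). MIR_dup32875 had 0.513, 0.561, 0.553 and 0.727 in QKO EpiLCs, where the WT libraries held 1 read in all, a ratio of 183 (95% counting interval 31.8 to 7325). Against TKO EpiLCs, also with 1 read, the ratio was 66.2 (11.5 to 2654).

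**Figure D5:**
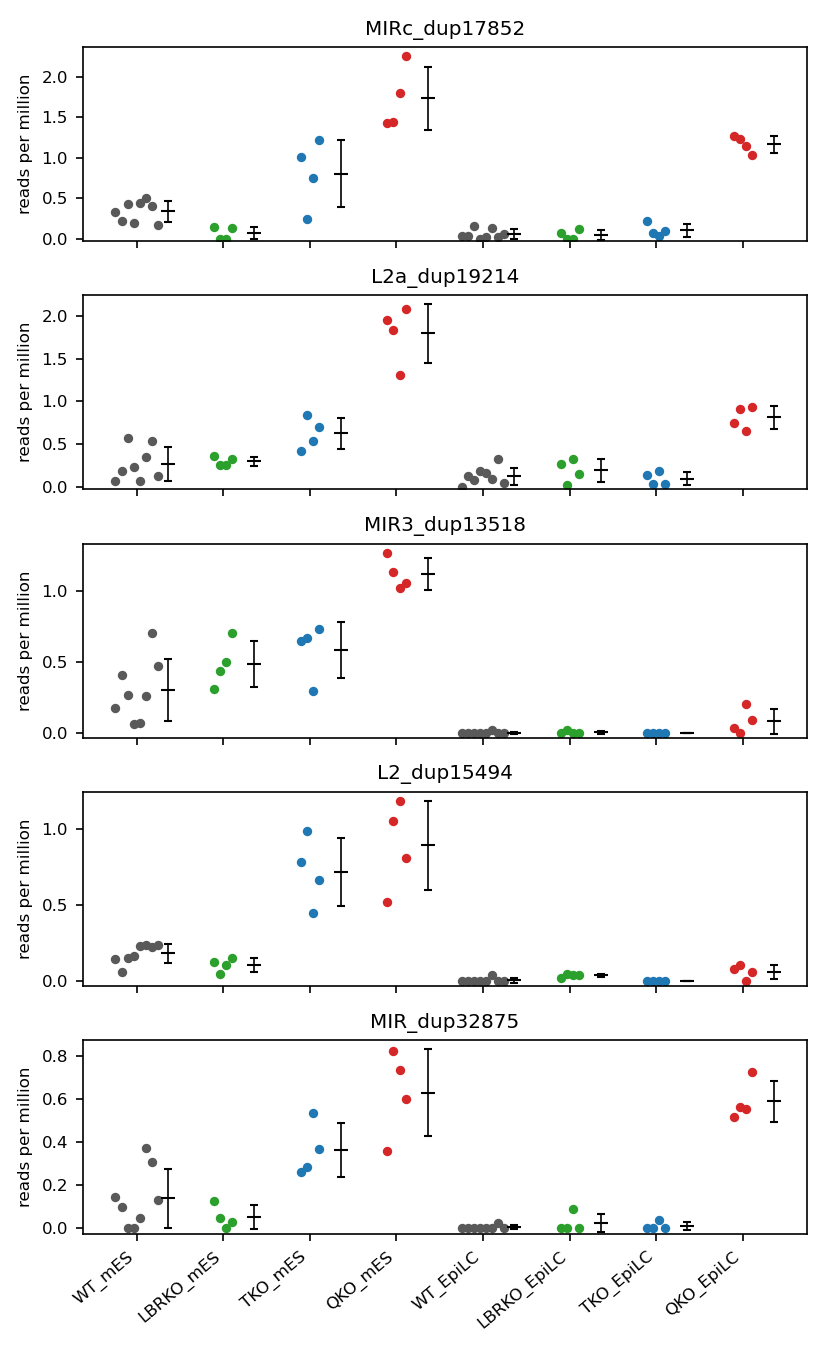
RPM on the 5 fullest member copies, for each library (points) with group mean and SD (black). The QKO mES mean exceeds the WT mES mean for each copy, from 0.629 against 0.137 for MIR_dup32875 to 1.80 against 0.269 for L2a_dup19214. The copies were ranked by RPM summed over all libraries, QKO among them, so a high QKO level helped to choose them.

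MIRb_dup20000 (chr8:89676160-89676268) and MIR_dup18016 (chr8:89676637-89676697), neighbours on chromosome 8, had 0.482 ± 0.275 and 0.457 ± 0.0882 RPM in QKO EpiLCs (SD, n = 4). MIRb_dup20000 was higher in TKO mES cells (log2 2.04, SE 0.57, edgeR adjusted p = 0.0168), a call lost without TKO replicate 1 (edgeR adjusted p = 0.0663) or 3 (edgeR adjusted p = 0.172), or against WT replicates 1 to 4 alone (edgeR adjusted p = 0.0797). MIR3_dup4337 (chr5:33668148-33668222) was lower in WT EpiLCs than in WT mES cells (log2 -3.17, SE 0.64, edgeR adjusted p = 4.27e-05). MIRc_dup3031 (chr3:18749539-18749587) had 0.652 ± 0.437 in QKO and 0.0618 ± 0.0631 in WT mES cells (SD, n = 4 and 8) and was higher (log2 3.29, SE 0.70, edgeR adjusted p = 0.000181). MIRb_dup36808 (chr16:9047482-9047656) had 0 reads in WT EpiLCs and was at least 7.95-fold higher in QKO EpiLCs.

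Among called copies outside the 10 fullest, L2c_dup4843 (chr7:110884634-110884826) lay 1495 bases from an L1MdA copy and had 60 reads in the 4 QKO mES libraries against 14 in 5 of the 8 WT libraries (log2 3.42, SE 0.76, edgeR adjusted p = 0.00047). L2a_dup20016 (chr16:9169870-9169943), in the fullest interval, was higher in QKO (log2 2.98, SE 0.65, edgeR adjusted p = 0.000314) and TKO mES cells (log2 2.18, SE 0.67, edgeR adjusted p = 0.0403). Its TKO call was lost without any 1 of WT replicates 1, 3, 4, 6 and 7 or TKO replicates 1 to 3 (edgeR adjusted p 0.0501 to 0.17), and against WT replicates 1 to 4 or 5 to 8 alone (edgeR adjusted p = 0.149 and 0.0757). MIRb_dup38826 (chr17:81091844-81091996), in an exon of the M39 lncRNA gene Gm33538, had 0 reads in WT and TKO EpiLCs. It was at least 24.7-fold higher in QKO and 9.66-fold higher in LBRKO EpiLCs than in WT, and at least 8.96-fold higher in QKO than in TKO. Its LBRKO call was lost against WT replicates 1 to 4 alone (edgeR adjusted p = 0.0517). L2a_dup11005 (chr8:87121071-87121203) and L2a_dup8162 (chr6:44191146-44191347) had 52 and 42 reads in WT mES cells and 0 in WT EpiLCs, at least 17.9-fold and 14.4-fold lower. MIRb_dup3634 (chr2:61232008-61232067) was the 1 copy called higher in WT EpiLCs (log2 2.73, SE 0.62, edgeR adjusted p = 0.000316).

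Members near young LINE-1 copies were set against the rest. The 1049 members within 5 kb of an L1MdA copy had 3.33 ± 1.57 in WT and 16.6 ± 2.56 in QKO mES cells, and those farther away 4.47 ± 1.54 and 14.4 ± 2.00 (SD, n = 8 and 4). The log2 ratio of near to far differed from WT by 0.68 in QKO mES cells (exact permutation p = 0.0384, adjusted 0.173) and by -0.72 in QKO EpiLCs (exact permutation p = 0.0303, adjusted 0.173), and none of the 9 comparisons passed. L1MdA copies in the same deserts had 2.00 ± 0.454 in WT, 19.4 ± 0.898 in TKO and 30.6 ± 2.09 in QKO mES cells, and 4.49 ± 0.512, 14.7 ± 1.01 and 38.1 ± 4.09 in EpiLCs.

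The families differed in mean level, and no family was tested against another. The rate divides reads by copy length. Among families with over 1000 members the median length ran from 98 bases in MIR3 to 165 in L2. On MIR3, MIR3_dup13518 and MIR3_dup4337 held 384 and 233 of 1539 reads. The part of length and of single copies in these levels was not tested. Among those with over 1000 members, MIR3 had 9.05 ± 4.94 in WT and 28.0 ± 2.48 in QKO mES cells and L2 2.02 ± 0.951 and 6.84 ± 1.18 (SD, n = 8 and 4). MIRc had 5.78 ± 1.69 and 22.0 ± 2.23, and MIRb 4.75 ± 1.502 and 16 ± 3.94. MIR had 4.07 ± 1.70 and 12.2 ± 3.08, L2a 4.39 ± 1.83 and 17.3 ± 1.63, and L2b 4.02 ± 1.73 and 15.7 ± 4.91. For L2c, MIR1_Amn, L2d2 and L2d the WT means were 4.25, 10.6, 4.87 and 2.22, and the QKO means 12.5, 17.9, 6.06 and 8.01. AmnL2-1, X24_LINE, X15_LINE, L2-2_Mam, X13_LINE, UCON86 and L2-1_AMi have 159 members or fewer each and are named only.

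Counted over the whole genome, with multimapped reads shared among families, 17 L2 and MIR families were tested. In QKO mES cells edgeR called 0 over 2-fold, against 25.1% of all TE families, with 1, X13_LINE, over 2-fold at an unadjusted p under 0.05 and 0 by DESeq2. In QKO EpiLCs it called 0, against 25.9%, with 0 unadjusted and 0 by DESeq2. QKO against TKO gave 0 in mES cells, against 4.47%, and 1 in EpiLCs, UCON86, against 21.8%; DESeq2 called 0 in both, and without either of TKO replicates 1 and 2 or any 1 of the QKO libraries edgeR did not call UCON86. TKO gave 0 at both stages, against 2.19% and 0.963%, LBRKO 0 at both, against 0.613% and 1.05%, and WT EpiLCs against WT mES cells 0, against 4.55%. Without the condition on fold, the families higher at an edgeR adjusted p under 0.05 were set beside the share of all 1142 TE families that were. In QKO mES cells 15 of 17 were higher, against 81.1%, and in QKO EpiLCs 16, against 83.9%. QKO against TKO gave 12 in mES cells, against 52.8%, and 16 in EpiLCs, against 77.9%. LBRKO gave 5 in mES cells, against 6.83%, and 2 in EpiLCs, against 11.1%. TKO gave 0 at both stages, against 16.9% and 3.77%, and WT EpiLCs against WT mES cells 2, against 16.4%. The median log2 change of the 17 was 0.67 in QKO mES cells and 0.73 in QKO EpiLCs, beside 0.82 and 0.85 over all TE families. In TKO cells it was 0.16 and -0.02, beside 0.25 and 0.01.

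Over the whole series, gene counts ran from 22594640 to 48863506 a library. Lmnb1 stood at 481 to 546 CPM (counts scaled to 1000000 gene counts) in WT and 8.25 to 15.5 in TKO and QKO mES cells. Lmna and Lmnb2 were also below every WT library there. In EpiLCs Lmnb1 was at 2.09 or less in TKO and QKO against 498 or more in WT. Lmna at 6.94 to 9.42 in QKO EpiLCs overlapped WT EpiLCs at 9.28 to 13.0. Lbr transcripts were reduced but present, at 145 to 274 in LBRKO and 236 to 239 in QKO mES cells against 346 to 407 in WT; LBRKO EpiLCs, at 196 to 403, overlapped WT EpiLCs. Fgf5, an epiblast marker, was at 0.193 or less in mES and 80.0 or more in EpiLC libraries. The summed level of 10 markers of other cell types was 9.09 to 10.5 CPM in QKO, 14.3 to 16.4 in TKO, 16.2 to 21.0 in WT and 37.6 to 40.8 in LBRKO mES cells. In EpiLCs it was 37.8 to 40.5 in QKO, 35.2 to 37.5 in TKO, 29.9 to 34.9 in WT and 23.8 to 27.3 in LBRKO. The sum joins markers that moved in opposite directions. In QKO against WT EpiLCs mean Eomes was 21.4 against 7.925 and mean Gata6 2.90 against 0.371. Mean Dab2 was 2.42 against 6.37, Thy1 4.12 against 6.97 and Col1a1 1.69 against 2.94. The part of these markers in the desert rates was not tested.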

How the data were processed

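Total RNA libraries were sequenced from 40 samples. Per the submitters' processing notes, the authors used cutadapt 2.5, STAR 2.7.10a, SAMtools 1.10 and featureCounts 1.6.4 with GRCm39. They deposited raw read counts per gene and per TE copy from uniquely mapped reads, and a TEtranscripts table of counts per gene and TE family that shares multimapped reads. Unique mapping leaves out reads of young, near-identical copies. No source used here states the strand setting, and copies on the sense and antisense strand of genes had 0.806 and 0.608 reads per base, so a copy's reads may come from either strand.

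The members and lists were chosen with earlier results of these data known. Rates were compared by two-sided exact permutation tests over libraries, adjusted by Benjamini-Hochberg over 9 comparisons. The log2 near to far ratios around L1MdA add 0.5 reads, and the desert to gene-span ratios add none. Copies, genes, families and summed member reads were fitted with edgeR 4.0.16 (quasi-likelihood, R 4.3.3; filterByExpr, minimum count 10; TMM) across all 40 libraries and adjusted over all features tested. A call needed an adjusted p under 0.05 and over 2-fold. The SE is the log2 change divided by the square root of its F statistic. DESeq2 1.42.0, other filters, scalings, distances and left-out libraries were alternatives. Named copies are the 10 fullest, the 5 fullest intervals, and up to 3 called copies with the highest and lowest fold in each comparison; other intervals named were chosen after their values were seen. Scripts were tested on simulated data. Intervals and floors cover counting error only.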

Additional observations from a re-analysis of the deposited data

Results flagged for a closer look

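A library was noted where its gap to the next one exceeded Dixon's 95% critical value. Of 112 groups examined, 13 held such a library. Chance alone gives about 1 in 20 for normally distributed values. A group with 1 library above 0 always exceeds the critical value, so the count cannot be set against that share. The desert rate of WT mES replicate 7 was 7.72, with 5.22 next, and that of WT EpiLC replicate 7 was 4.85, with 3.66 next. The log2 desert to gene-span ratio of QKO EpiLC replicate 1 was -6.33, below the next at -6.09.

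In RPM, TKO EpiLC replicate 1 had 0.0443, with 0 next in the fullest desert interval and 0.221, with 0.0904 next in the second. TKO EpiLC replicate 3 had 0.0371 in the fourth interval, where the other TKO EpiLC libraries had 0. LBRKO EpiLC replicate 3, whose desert rate was also the highest of its group, had 1.32, with 0.519 next in the fifth, on chromosome 14.

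The other values come from copies with 1 library above 0 in the group. For MIR3_dup13518 this was WT EpiLC replicate 6 at 0.0216 and LBRKO EpiLC replicate 2 at 0.0245. For L2_dup15494 it was WT EpiLC replicate 6 at 0.0432. For MIR_dup32875 it was WT EpiLC replicate 7 at 0.0215, LBRKO EpiLC replicate 3 at 0.0866 and TKO EpiLC replicate 3 at 0.0371.

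The TKO difference in summed member reads differed between stages by the test of the interaction. It was -0.89 on the log2 scale (SE 0.26, edgeR adjusted p = 0.0217). For MIR reads alone the interaction of -0.73 did not pass (edgeR adjusted p = 0.0827). All 4 TKO libraries lay above the WT median in mES cells.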

How the results depend on the processing

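The QKO excess in the desert rate was positive under every alternative tried, with 2 limits. Exact permutation tests on 4 WT libraries cannot pass after adjustment where few of the 9 comparisons reach the smallest p, and few members have counts enough for a fit. With members at least 25 kb from genes the desert rate was 7.15 in QKO against TKO mES (adjusted p = 0.0429), 6.99 in QKO against TKO EpiLC (adjusted p = 0.0429), -1.39 in WT EpiLC against mES (adjusted p = 0.0318). With members at least 100 kb from genes the desert rate was 1.63 in TKO against WT mES (adjusted p = 0.0514), 0.0231 reversed in WT EpiLC against mES. There the copies hit in an equal draw differed by 0.31 reversed in TKO against WT mES, 1.49 reversed in QKO against WT mES, 1.59 reversed in QKO against WT EpiLC. There the log2 desert to gene-span ratio was 0.73 in QKO against TKO mES (adjusted p = 0.0514), -0.0175 reversed in LBRKO against WT EpiLC, 1.06 in QKO against TKO EpiLC (adjusted p = 0.0514), 0.0498 reversed in WT EpiLC against mES. Without the fullest 1% of copies the desert rate was 0.35 in TKO against WT mES (adjusted p = 0.278), 0.56 reversed in WT EpiLC against mES. Without the fullest 0.1% of copies the desert rate was 1.31 in TKO against WT mES (adjusted p = 0.0945). With 50 kb from M39 genes as well the desert rate was -0.22 reversed in LBRKO against WT EpiLC, 0.46 reversed in WT EpiLC against mES. Without the fullest 5%, chosen after seeing the data, the desert rate was 0.0164 in TKO against WT mES (adjusted p = 0.994), -0.00232 reversed in LBRKO against WT EpiLC, 0.48 reversed in WT EpiLC against mES (adjusted p = 0.0303). Without chromosome 16, chosen after seeing the data, the desert rate was 1.62 in TKO against WT mES (adjusted p = 0.0909). With WT replicates 1 to 4 alone the desert rate was 1.87 in LBRKO against WT mES (adjusted p = 0.0429), 7.47 in QKO against TKO mES (adjusted p = 0.0429), 5.99 in QKO against TKO EpiLC (adjusted p = 0.0429). There the copies hit in an equal draw differed by 1.19 reversed in QKO against WT mES, 5.56 reversed in QKO against WT EpiLC. There the log2 desert to gene-span ratio was 0.33 in LBRKO against WT mES (adjusted p = 0.0429), -0.24 in WT EpiLC against mES (adjusted p = 0.11). There the copies called were 1 in QKO against TKO mES, 0 in LBRKO against WT EpiLC. There the families called were 2 in LBRKO against WT mES, 3 in QKO against WT mES, 1 in QKO against WT EpiLC, 0 in QKO against TKO EpiLC, 1 in WT EpiLC against mES. There the stage interaction was -0.64 in QKO (adjusted p = 0.0292). With WT replicates 5 to 8 alone the desert rate was 1.79 in TKO against WT mES (adjusted p = 0.214), 9.26 in QKO against WT mES (adjusted p = 0.0643), 5.36 in QKO against WT EpiLC (adjusted p = 0.0643). There the copies hit in an equal draw differed by -3.48 reversed in LBRKO against WT EpiLC. There the log2 desert to gene-span ratio was -0.035 reversed in LBRKO against WT mES, 0.54 in TKO against WT mES (adjusted p = 0.0514), 1.34 in QKO against WT mES (adjusted p = 0.0514), 0.79 in QKO against TKO mES (adjusted p = 0.0514), 1.07 in QKO against WT EpiLC (adjusted p = 0.0514), 1.20 in QKO against TKO EpiLC (adjusted p = 0.0514), -0.57 in WT EpiLC against mES (adjusted p = 0.0857). There the log2 near to far ratio around L1MdA was -0.0637 reversed in TKO against WT mES, -0.15 reversed in WT EpiLC against mES. There the copies called were 1 in QKO against TKO mES. There the families called were 1 in QKO against WT EpiLC. There the stage interaction was 0.0494 reversed in LBRKO, 0.0228 reversed in LBRKO (L2), 0.066 reversed in LBRKO (MIR), -0.73 in TKO (adjusted p = 0.0819). With 2 kb around L1MdA the log2 near to far ratio around L1MdA was 0.24 reversed in LBRKO against WT mES. With 10 kb around L1MdA the log2 near to far ratio around L1MdA was -0.0513 reversed in QKO against TKO EpiLC. With the replicate number as a block the copies called were 1 in QKO against TKO mES. There the families called were 1 in QKO against WT mES, 1 in QKO against WT EpiLC, 1 in WT EpiLC against mES. With a minimum count of 5 the copies called were 23 in QKO against WT mES, 1 in TKO against WT EpiLC, 17 in QKO against WT EpiLC, 27 in WT EpiLC against mES. With a minimum count of 20 the copies called were 1 in TKO against WT mES, 4 in QKO against WT mES, 1 in QKO against TKO mES, 0 in LBRKO against WT EpiLC, 4 in QKO against WT EpiLC, 4 in QKO against TKO EpiLC, 4 in WT EpiLC against mES. Under DESeq2 the copies called were 1 in QKO against TKO mES. There the families called were 0 in QKO against TKO EpiLC. Summed per desert interval, chosen after seeing the data, the intervals called were 7 in TKO against WT mES, 4 in QKO against TKO mES, 3 in LBRKO against WT EpiLC. The causes of these changes were not tested, other than that fewer libraries limit the smallest p and a stricter minimum count leaves fewer copies.

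Leaving out 1 library at a time changed a call or sign in these results. For the desert rate, values ran from 0.80 to 1.47 in LBRKO against WT mES, from 2.48 to 3.15 in TKO against WT mES, from -1.29 to -0.59 in WT EpiLC against mES, from -0.25 to 0.89 in LBRKO against WT EpiLC. For the copies hit in an equal draw, values ran from -2.09 to 0.96 in QKO against WT EpiLC. For the log2 desert to gene-span ratio, values ran from -0.063 to 0.14 in LBRKO against WT EpiLC. For the log2 near to far ratio around L1MdA, values ran from -0.086 to 0.22 in TKO against WT mES, from -0.28 to 0.31 in QKO against TKO EpiLC. For the copies called, values ran from 0 to 1 in LBRKO against WT mES, from 1 to 4 in TKO against WT mES, from 4 to 7 in QKO against TKO EpiLC. For the families called, values ran from 0 to 1 in QKO against WT mES, from 0 to 1 in WT EpiLC against mES, from 0 to 1 in QKO against WT EpiLC, from 0 to 1 in QKO against TKO EpiLC. For the stage interaction, values ran from -0.41 to 0.012 in LBRKO, from -1.05 to -0.80 in TKO, from -0.57 to -0.32 in QKO. The LBRKO stage interaction of MIR reads ran from -0.36 to 0.0296. Of 781 values for 45 calls of single copies under the alternatives, 729 kept direction and call, 52 lost the call and 0 changed direction.

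The replicate numbers did not pair the samples: deviations of same-numbered libraries correlated between -0.26 and 0.45, with every pair over 0.1 in none of the 9 comparisons. With the replicate block the copies called were 12 for QKO in mES cells and 9 in EpiLCs, and the TKO stage interaction was -0.93 (edgeR adjusted p = 0.000813).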
